A study of Bos taurus with 32 samples.

Results

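Collagens and other proteins of the extracellular matrix were followed across the bovine endometrium. The genes were taken by name from the annotation of the array. Names beginning with COL (collagen alpha chains), LAMA, LAMB or LAMC, FBN, FBLN, THBS, TNC, TNX, NID or LOX were taken, as were FN1, ELN, DCN, BGN, LUM, FMOD, SPARC, VCAN and POSTN, and 2 probes, THBS4 and COL1A2, were added by their identifiers. The rule gave 31 of the 15208 probes, 1 probe per gene. THBS4 and COL1A2 stand in the study's own gene lists, which were drawn from these same arrays, so that their direction here is not independent evidence.

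RNA came from the endometrium of 4 repeat breeder (RB) and 4 non-RB cows, all of them Japanese Black, non-lactating and at Day 15 of their cycle. RB cows showed estrus and had a uterus and ovaries that felt healthy on palpation, but had failed to conceive after at least 3 inseminations. Non-RB cows had conceived. Their pregnancy was ended with a prostaglandin F2α analogue and they then cycled normally, so that the groups also differ in a recent pregnancy. The uterine horn on the side of the corpus luteum is called ipsilateral and the other contralateral. In each horn the caruncles (CAR), the raised areas without glands where the placenta later attaches, were dissected from the glandular intercaruncular endometrium (ICAR) between them. Each cow gave 1 single-colour array for each of these 4 compartments, 32 arrays in all.

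The extracellular matrix holds the stroma of the endometrium together and is made mostly by its fibroblasts. Fibrillar collagens form the ropes of the stroma, small leucine-rich proteoglycans sit on these fibrils and set their thickness and spacing, elastic fibres give recoil, lysyl oxidases cross-link collagen and elastin, and type IV collagens with nidogen form the sheet under epithelium and around vessels and muscle cells. Matricellular proteins such as the thrombospondins bind this scaffold and cell surface receptors without being part of the load-bearing structure. In ruminants the caruncle is rebuilt into the maternal side of the placentome during pregnancy.

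The triple helix of a collagen needs a glycine at regular intervals of 3 residues, and this repeat can be read from 4 of the probes themselves. The probes are 60 bases long and read in the sense of the gene, and they are printed 5′ to 3′ because the repeat bears on how far a signal belongs to a single collagen gene. Capitals mark the codons that begin with GG, which encode glycine, in a frame in which they recur at every 3 codons.
COL4A1: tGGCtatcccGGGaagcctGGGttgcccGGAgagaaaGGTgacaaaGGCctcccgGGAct
COL11A1: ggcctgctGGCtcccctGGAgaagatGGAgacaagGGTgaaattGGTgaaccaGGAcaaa
COL2A1: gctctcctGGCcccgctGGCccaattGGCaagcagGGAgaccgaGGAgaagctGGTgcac
COL6A2: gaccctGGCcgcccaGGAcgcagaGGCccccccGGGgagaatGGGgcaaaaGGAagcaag
Such a frame was present in 6 of the 15208 probes (0.0395%) and in 4 of the 31 matrix probes (12.9%). The probes of COL11A1 and COL2A1 shared 34 of 60 bases in the same register, the highest of the 465 pairs of matrix probes, whose median was 20. Cross-hybridization between collagen genes was not tested.

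Each value is the log2 of the background-subtracted intensity of a probe minus the log2 of the 75th percentile of its array (P75), so that 0 is the level of a fairly bright probe and 1 unit is a doubling. The P75 of an array lay between 1165 and 4857 intensity units, and 74.3% to 85.8% of all features gave a signal well above background. Of the 992 matrix values 0 carried an outlier flag. Slide 1 stood apart. It held only non-RB replicate 2 of CAR contralateral, and non-RB replicate 1 of ICAR contralateral. The 100 probes of a repeated GAPDH sequence had an SD of 1.32 and 0.869 on them, against a median of 0.153 over arrays. The main results that rest on these arrays are given with and without them, but area differences of genes other than BGN only with them. Slide 2 carried every array of RB replicates 2 and 3 and no non-RB array, and only slides 6 and 8 held both groups. A comparison of RB with non-RB cows with the slide as a block thus rests on slides 6 and 8 alone, except in CAR ipsilateral. Arrays with the same number in a group were taken as the same cow, which the labels do not state. In whole tissue, fewer cells of a type and less RNA per cell cannot be told apart. All 8 epithelial and all 4 stromal markers measured, among them KRT8, EPCAM, VIM and PDGFRA, were well above background on all 32 arrays.

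The matrix genes spanned nearly the whole range of the arrays. Levels of different probes also depend on the probe, and they are given as a description. DCN, encoding decorin, had a mean of 5.81 over the 32 arrays, above 99.7% of all probes. SPARC, a collagen-binding matricellular protein, averaged 4.95 (above 99.3% of probes), LUM, encoding lumican, 3.09 (96.9%) and BGN, encoding biglycan, 2.35 (94.4%). Thus 4 proteins that bind collagen, 3 of them small leucine-rich proteoglycans, were among the brightest probes of the endometrium. The fibrillar collagen chain COL1A2 averaged 0.34 and its partner chain COL1A1 -2.71. At the low end, the probes of COL4A1, FN1 (fibronectin) and NID1 (nidogen 1) averaged -6.60, -6.40 and -6.08. FN1 had a second probe under another name in the annotation, outside the rule, which averaged -0.24, so that the 2 probes of this gene gave different levels. COL6A2, COL10A1 and COL2A1 also had such a second probe, averaging -9.45, -9.56 and -4.09. Their probes in the rule averaged -1.59, -5.89 and -4.76. The second probes of COL6A2 and COL10A1 were well above background on only 1 and 2 of 32 arrays. COL9A1 was well above background on 0 of 32 arrays, and the other 30 genes passed the filter on dim probes and were tested in every comparison. One of the 30, COL4A3BP, was matched by its name only: it encodes a ceramide transfer protein and is no collagen.

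CAR and ICAR were compared over both horns and both groups, to ask in which part of the endometrium the matrix genes were higher. BGN was the only matrix gene that passed the adjusted threshold of 0.05 in limma. In the ipsilateral horn, BGN in CAR of non-RB replicates 1 to 4 was at 2.96, 2.50, 2.71 and 2.31, and in ICAR at 1.79, 2.65, 2.89 and 1.74. In RB replicates 1 to 4 it was at 3.01, 1.998, 2.76 and 3.08 in CAR and at 1.56, 1.72, 1.66 and 1.93 in ICAR. Every RB cow was thus higher in CAR in this horn, whereas non-RB replicates 2 and 3 were slightly lower.

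In the contralateral horn, BGN in CAR of the non-RB replicates was at 2.56, 3.53, 2.73 and 2.61 and in ICAR at 2.23, 2.87, 2.23 and 1.70. The RB replicates gave 2.65, 2.21, 1.93 and 2.98 in CAR and 1.80, 1.71, 2.58 and 1.71 in ICAR, and here only RB replicate 3 was lower in CAR. BGN was higher in CAR in 13 of the 16 pairs of the same cow and horn, and in 11 of 14 without the arrays of slide 1. The mean over arrays was 2.66 ± 0.42 (SD, n = 16) in CAR and 2.05 ± 0.46 in ICAR. The difference was 0.61 (SE 0.15), a fold of 1.53, with an adjusted p of 0.0397 in limma. Averaged over the horns BGN was higher in CAR in 8 of 8 cows, and an exact sign-flip test over the cows gave the smallest two-sided p it allows, 0.0078125. The cow differences were 0.75, 0.26, 0.16 and 0.74 in non-RB replicates 1 to 4 and 1.15, 0.39, 0.22 and 1.22 in RB replicates 1 to 4. The call was narrow. Without the arrays of slide 1 the difference was 0.56 with an adjusted p of 0.0632, no longer past the threshold, and 7 of 8 cows were higher in CAR. It was also lost without any 1 of RB replicates 1, 2 and 4 or non-RB replicates 1, 3 and 4, with a difference of at least 0.52 throughout, and 3 matrix genes were called without RB replicate 3 or without non-RB replicate 2.

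**Figure D1:**
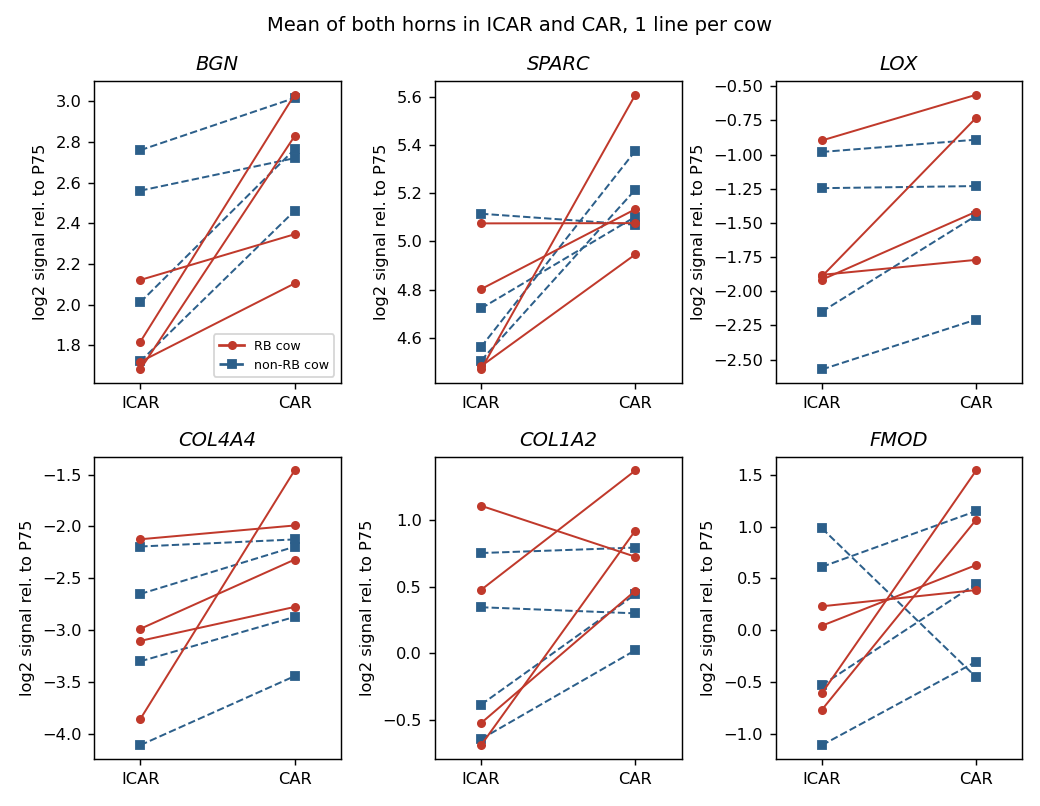
Signal of 6 matrix genes in ICAR and CAR (y axis: log2 signal relative to P75, mean of both horns), with 1 line per cow, RB cows as red circles with solid lines and non-RB cows as blue squares with dashed lines. BGN, LOX and COL4A4 rise from ICAR to CAR in all 8 cows, SPARC and FMOD in 7 and COL1A2 in 6.

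The call rate of this comparison was 174 of 12919 probes (1.35%), of which 0.387% of the probes tested were higher in CAR, against 1 of the 30 matrix genes. Without adjustment, 7 of 30 matrix genes (23.3%) had a p under 0.05, all higher in CAR. Of all probes 8.69% were so, and 16.2% in either direction. Without the arrays of slide 1 it was 5 of 30, against 15.6% of all probes in either direction. In RB cows alone it was 10 of 30 against 15.5%, and in non-RB cows alone 1 of 30 against 4.23%. Within the ipsilateral and contralateral horn it was 4 and 2 of 30, against 9.7% and 3.86%. Including those that did not pass any threshold, 28 of the 30 (93.3%) had a positive difference against 53.1% of all probes, with a median of 0.23 against 0.015. Genes of the matrix share cells and may vary together, so that these counts describe the set and are no test of it. LOX, encoding the lysyl oxidase that cross-links collagen and elastin, and the basement membrane collagen COL4A4 were, with BGN, the 3 genes (10%) that had the same sign in all 8 cows, against 2.71% of all probes. LOX differed by 0.41 (SE 0.21, adjusted p = 0.331) and COL4A4 by 0.64 (SE 0.25, adjusted p = 0.180).

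By role, all 4 fibrillar collagens had a positive difference, with a median of 0.47. COL1A1 and COL1A2, the chains of type I collagen, differed by 0.60 and 0.58 (adjusted p of 0.297 and 0.165), and COL11A1 and COL2A1 by 0.36 and 0.35. The 5 basement membrane genes had the largest median, 0.53. COL4A4 and COL18A1 both stood at 0.64, COL4A3 at 0.53, COL4A1 at 0.29 and NID1 at 0.22. Non-RB replicates 1 and 2 each have an array on slide 1. Their cow differences were 2.80 and -1.62 for COL11A1, 1.72 and 0.24 for NID1, and 1.91 and -0.19 for COL18A1. Among the 4 small leucine-rich proteoglycans BGN was joined by FMOD, encoding fibromodulin, at 0.70 (SE 0.27, adjusted p = 0.174), while LUM was at 0.23. DCN, the brightest matrix probe, was nearly level between the areas at 0.08 (SE 0.19).

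The elastic fibre genes FBLN5, FBN1 and ELN (fibulin 5, fibrillin 1 and elastin) differed by 0.32, 0.24 and 0.21. Of the 7 adhesive and matricellular genes, SPARC had the smallest p with a difference of 0.47 (SE 0.14, adjusted p = 0.0716) and was higher in CAR in 7 of 8 cows. POSTN, encoding periostin, was at 0.46, and FN1, THBS1 and THBS4 were at 0.15, 0.13 and 0.02. The FN1 value is that of the dim probe in the rule and not of its brighter second probe. For POSTN the cow difference of non-RB replicate 1, with an array on slide 1, was 2.22. The only negative values were LOXL4, a further lysyl oxidase, at -0.23 (SE 0.26), and COL4A3BP at -0.10. None of these genes other than BGN passed the adjusted threshold in this fit, which takes the 32 arrays as independent. With the cow as a block COL4A4, LOX, SPARC and COL1A2 passed it as well, with adjusted p of 0.0455, 0.0336, 0.0456 and 0.0446 in limma.

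**Figure D2:**
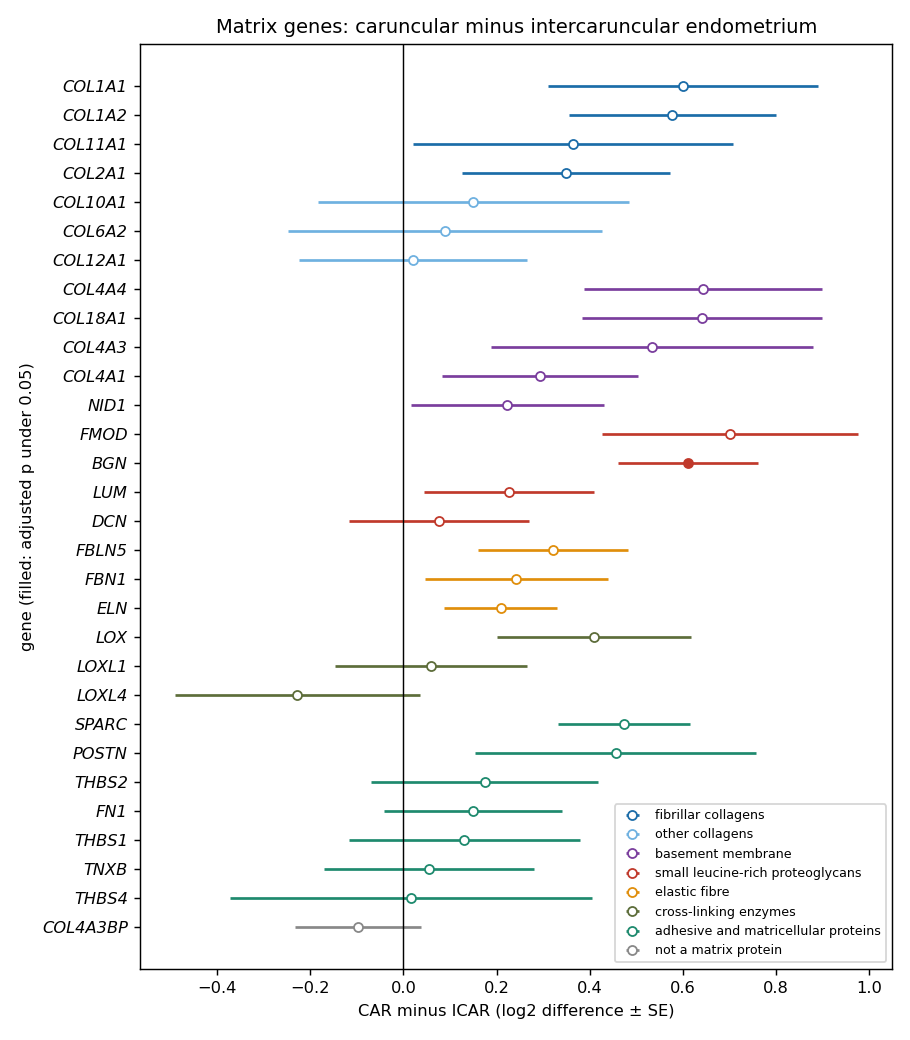
Difference between CAR and ICAR (x axis: log2 difference, point, with SE, bar) for the 30 matrix genes tested, grouped by role in colour, from the fit over 32 arrays. Of the 30 points 28 lie to the right of 0, and only BGN, filled, passed an adjusted p of 0.05.

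The direction was not carried by a single group or horn. The number of the 30 genes higher in CAR was 25 in RB cows alone (median 0.32) and 25 in non-RB cows alone (median 0.21), 26 within the ipsilateral and 27 within the contralateral horn, and 26 without the arrays of slide 1. It was less even between cows. Non-RB replicates 1 to 4 had 24, 15, 17 and 24 genes higher in CAR, and RB replicates 1 to 4 had 25, 22, 18 and 24. In non-RB replicate 2 the median of the matrix genes was -0.015 against 0.113 for all probes. In RB replicate 3 it was 0.009 against 0.023, so that these cows showed no lean. Of all probes 50.3% to 55.5% were higher in CAR in the subsets by group, horn or slide. Whether the area difference itself differed between RB and non-RB cows was tested within cows: limma called 0 of 12919 probes, and 0 of the 30 matrix genes had an unadjusted p under 0.05, against 0.867% of all probes. The groups overlapped for all 30, and did not for 0.712% of all probes.

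Genes that process collagen were measured as well. Of 6 such genes, all expressed, 5 were positive with a median of 0.19 and 0 passed the adjusted threshold in limma. Only PLOD1, a lysyl hydroxylase, had an unadjusted p under 0.05 (0.0455), with a difference of 0.27. Of 13 receptors for matrix proteins 8 were positive (median 0.07), and of the 3 regulators CTGF, CYR61 and TGFB1 2 were, with 0 called and 0 at an unadjusted p under 0.05 in either list. A further 14 matrix probes carried their gene only in the description or the accession, so that the rule on names missed them. Of these 9 were tested, 7 were positive and 4 had an unadjusted p under 0.05, with 0 past the adjusted threshold. Among these TNC, encoding tenascin C, was 1.78 higher in CAR (SE 0.55, adjusted p = 0.0774) and COL11A2 1.03 higher (SE 0.31, adjusted p = 0.0748), both larger than the difference of any of the 30.

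Markers of other cell types were measured beside these values. All 8 epithelial markers were lower in CAR (median -0.38, 0 called in limma, 4 with an unadjusted p under 0.05), with a summed level, in multiples of the P75, from 19.3 to 57.0 and a median of 30.3 in CAR and from 14.3 to 80.8 and a median of 42.7 in ICAR. Of the 4 stromal markers 3 were higher in CAR (median 0.26), while their summed level had a median of 11.5 (3.05 to 18.7) in CAR and 12.7 (4.09 to 17.3) in ICAR. A summed level weighs bright probes most, and the brightest stromal probe was S100A4 (mean 2.89), followed by VIM (mean 1.33). Their part in the matrix values was not tested.

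The study was designed to ask what differs between RB and non-RB endometrium, and this was tested compartment by compartment. In limma 0 of the 30 matrix genes passed the adjusted threshold in any of the 4 compartments or over the whole uterus, nor did any other probe (percent called 0 in each). The smallest adjusted p of a matrix gene was 0.863, in ICAR ipsilateral. An unadjusted p under 0.05 was reached by 4 matrix genes in CAR ipsilateral (13.3%, against 3.41% of all probes), 2 in ICAR ipsilateral (6.67% against 3.69%), 1 in CAR contralateral (3.33% against 1.74%) and 0 in ICAR contralateral (against 1.6%). The methods' t-test gave 2, 2, 0 and 0 matrix genes in these compartments and 0 over the whole uterus before adjustment, and 0 after it. With 4 against 4 arrays an exact permutation test cannot give a two-sided p below 0.0286.

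THBS4, encoding thrombospondin 4, had the largest absolute difference of the matrix genes in each of the 4 compartments. In CAR ipsilateral RB replicates 1 to 4 were at -4.24, -6.03, -4.51 and -7.82, and non-RB replicates at -3.15, -2.62, -4.44 and -4.29. In ICAR ipsilateral the RB values were -4.30, -5.78, -5.45 and -6.63 and the non-RB values -3.86, -3.57, -3.90 and -3.69. The groups overlapped in CAR, where RB replicate 1 lay among the non-RB cows, and did not overlap in ICAR, where the non-RB cows were within 0.33 of each other.

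In CAR contralateral THBS4 was at -4.29, -6.18, -4.74 and -7.62 in RB and at -3.24, -2.34, -4.39 and -4.53 in non-RB cows. In ICAR contralateral it was at -3.39, -5.87, -4.72 and -8.01 in RB and at -3.60, -2.76, -4.75 and -4.41 in non-RB cows. RB replicate 4 was the lowest array in all 4 compartments, and in CAR ipsilateral and ICAR contralateral its spot was not well above background. RB replicate 1 was the highest RB cow in every compartment and in ICAR contralateral it was above 3 of the 4 non-RB cows.

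The THBS4 difference, RB minus non-RB, was -2.02 (SE 0.75) in CAR ipsilateral, -1.78 (SE 0.43) in ICAR ipsilateral, -2.09 (SE 0.77) in CAR contralateral and -1.62 (SE 0.90) in ICAR contralateral. The exact permutation p was 0.0857, 0.0286, 0.0857 and 0.200 in that order, and limma's adjusted p was 0.863 or higher in each. A lack of overlap, seen in ICAR ipsilateral, was shared by 2.23% of all probes there and by 1 of 30 matrix genes. Over the 4 arrays of each cow, RB cows averaged -5.60 ± 1.501 (SD, n = 4) and non-RB cows -3.72 ± 0.72, a difference of -1.88 (SE 0.68, adjusted p above 0.99 in limma, exact permutation p = 0.0857). It was the 1 matrix gene (3.33%) with an unadjusted p under 0.05 over the whole uterus, against 2.21% of all probes, and the groups overlapped for all 30 genes, where 1.19% of all probes did not. The cow means were -4.06, -5.97, -4.86 and -7.52 in RB and -3.46, -2.82, -4.37 and -4.23 in non-RB replicates 1 to 4, so that RB replicate 1 lay above non-RB replicates 3 and 4. Without RB replicate 4 the difference was -1.24 and without the arrays of slide 1 it was -1.85. The study also measured THBS4 by quantitative PCR in the same samples. It reports that this bore out its array result in ICAR ipsilateral and in the whole uterus. Those PCR values were not part of the data used here.

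The slide is largely confounded with the group, since RB replicates 2 and 3 shared a slide with no non-RB cow, and the 2 cannot be told apart for them. Within slides that held both groups, THBS4 could be compared 6 times, each with 1 RB and 1 non-RB array. RB replicate 4 was lower than non-RB replicate 3 on slide 6 by -2.73 in ICAR ipsilateral, -3.23 in CAR contralateral and -3.26 in ICAR contralateral. On slide 8 RB replicate 1 was lower than its non-RB partner by smaller amounts, with differences of -0.73, -1.06 and -0.63 in the same compartments. With the slide as a block the difference was -1.95, -1.73, -2.14 and -1.94 in the 4 compartments in the order above. In CAR ipsilateral, where no slide held both groups, the block was a random one. The other values rest on the same 6 pairs and are no separate check.

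THBS4 varied more between cows, taken by replicate number, than between the compartments of a cow, and more so than any other matrix gene. After the mean of each group in each compartment was removed, the SD between cows was 1.18 and the SD between the compartments of a cow 0.47. Their ratio, 2.50, was above that of 99.7% of the 12919 probes, whose median was 0.828. It was followed among the matrix genes by LOX (1.61), LUM (1.56) and THBS2 (1.54), above 96.5%, 95.8% and 95.6% of probes. The median of the 30 was 0.895. SPARC had the lowest ratio, 0.288, with an SD of 0.13 between cows and 0.47 within a cow. RB replicates 2, 3 and 4 and non-RB replicate 4 each had all arrays on 1 slide, so that cow and slide cannot be told apart for them.

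**Figure D3:**
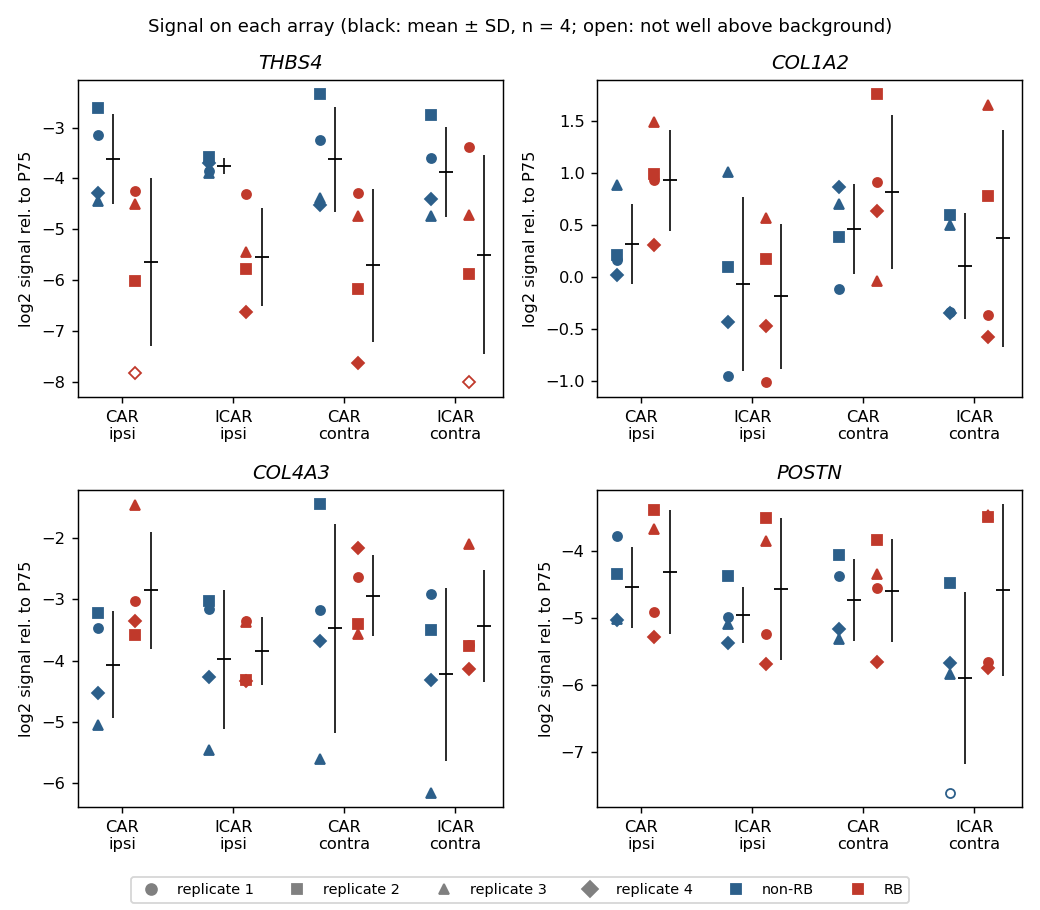
Signal on each of the 32 arrays (y axis: log2 signal relative to P75) for THBS4, COL1A2, COL4A3 and POSTN in the 4 compartments, with the replicate by symbol, RB in red, non-RB in blue, mean ± SD (n = 4) in black and open symbols for spots not well above background. THBS4 is lowest in RB replicate 4 in every compartment, and the non-RB points of ICAR ipsilateral lie within 0.33 of each other.

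COL1A2, the other gene from the study's lists, had no common direction. In CAR ipsilateral it was at 0.93, 0.99, 1.49 and 0.31 in RB and at 0.17, 0.21, 0.88 and 0.02 in non-RB replicates 1 to 4, a difference of 0.61 (SE 0.32, exact permutation p = 0.0571). In ICAR of the same horn the values were -1.01, 0.17, 0.57 and -0.47 in RB and -0.95, 0.10, 1.007 and -0.43 in non-RB cows. The difference was -0.12 (SE 0.47), and it was 0.16 without RB replicate 1 and 0.24 without non-RB replicate 3. With the slide as a block, which rests on slides 6 and 8 alone, it was -1.29 (adjusted p = 0.248 in limma). The contralateral differences were 0.36 (SE 0.39) in CAR and 0.27 (SE 0.51) in ICAR, where it was -0.16 without RB replicate 3, and over the whole uterus 0.28 (SE 0.30, exact permutation p = 0.457).

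In CAR ipsilateral, FBLN5 was the 1 matrix gene of 30 (3.33%, against 1.97% of all probes) whose groups did not overlap. Fibulin 5 tethers elastin to cells and to the growing elastic fibre. It was at 0.22, 0.26, -0.20 and 0.13 in RB and at -0.45, -0.41, -0.30 and -0.48 in non-RB cows, a difference of 0.52 (SE 0.23, exact permutation p = 0.0286, adjusted p above 0.99 in limma). The difference was 0.10 in CAR contralateral and -0.08 and -0.07 in ICAR ipsilateral and contralateral. NID1, which links laminin to type IV collagen, differed by -0.74 in CAR ipsilateral (SE 0.31, exact permutation p = 0.114) and COL4A3 by 1.21 (SE 0.54, exact permutation p = 0.143). COL4A3 was lowest in non-RB replicate 3 in all 4 compartments, at -5.05, -5.46, -5.60 and -6.15. In CAR ipsilateral 7 of the 8 epithelial markers were lower in RB cows (median -0.40), and their summed level was 19.3 to 30.2 in RB and 37.6 to 50.04 in non-RB cows, without overlap. Of the 13 receptors for matrix proteins tested there, 10 were lower in RB cows (median -0.21). The summed level of the receptor list did not overlap either, at 14.4 to 25.5 in RB and 29.1 to 51.5 in non-RB cows. Bright probes weigh most in such a sum, and this one is mostly ITGB5. Its mean over the 32 arrays was 4.51, against 0.44 for SDC2, the next brightest receptor. Of all single probes 1.97% did not overlap there. Stromal markers summed to 10.02 to 15.6 and 9.11 to 18.7. The part of these cells in the matrix values was not tested.

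In ICAR ipsilateral the matrix genes leaned to lower values in RB cows. Of the 30, 24 had a negative difference, with a median of -0.38 against -0.027 for all probes, of which 46.9% were positive. The count was 19 without RB replicate 1, and the median was -0.19 without non-RB replicate 2. With the slide as a block, which rests on slides 6 and 8 alone, the median was -0.73. All 4 fibrillar and all 3 other collagens tested were lower, as were 4 of 5 basement membrane genes and 6 of 7 adhesive and matricellular genes, with SPARC close to 0. The cross-linking enzymes were not, with LOXL4 at 0.67 (SE 0.48) and LOX at -0.03. Only THBS4 and TNXB reached an unadjusted p under 0.05. TNXB, encoding tenascin X, was at -1.40, -1.13, -1.02 and -1.39 in RB and at -1.15, -0.54, 0.09 and -0.62 in non-RB cows, a difference of -0.68 (SE 0.28, exact permutation p = 0.0857). COL4A1 differed by -0.74 (SE 0.35, exact permutation p = 0.0857), BGN by -0.55 and COL18A1 by -1.013 (SE 0.56). The 4 stromal markers were also all lower (median -0.23), with a summed level of 8.96 to 12.9 in RB and 8.76 to 17.3 in non-RB cows, and 4 of the 8 epithelial markers were lower. Their part in the matrix values was not tested.

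**Figure D4:**
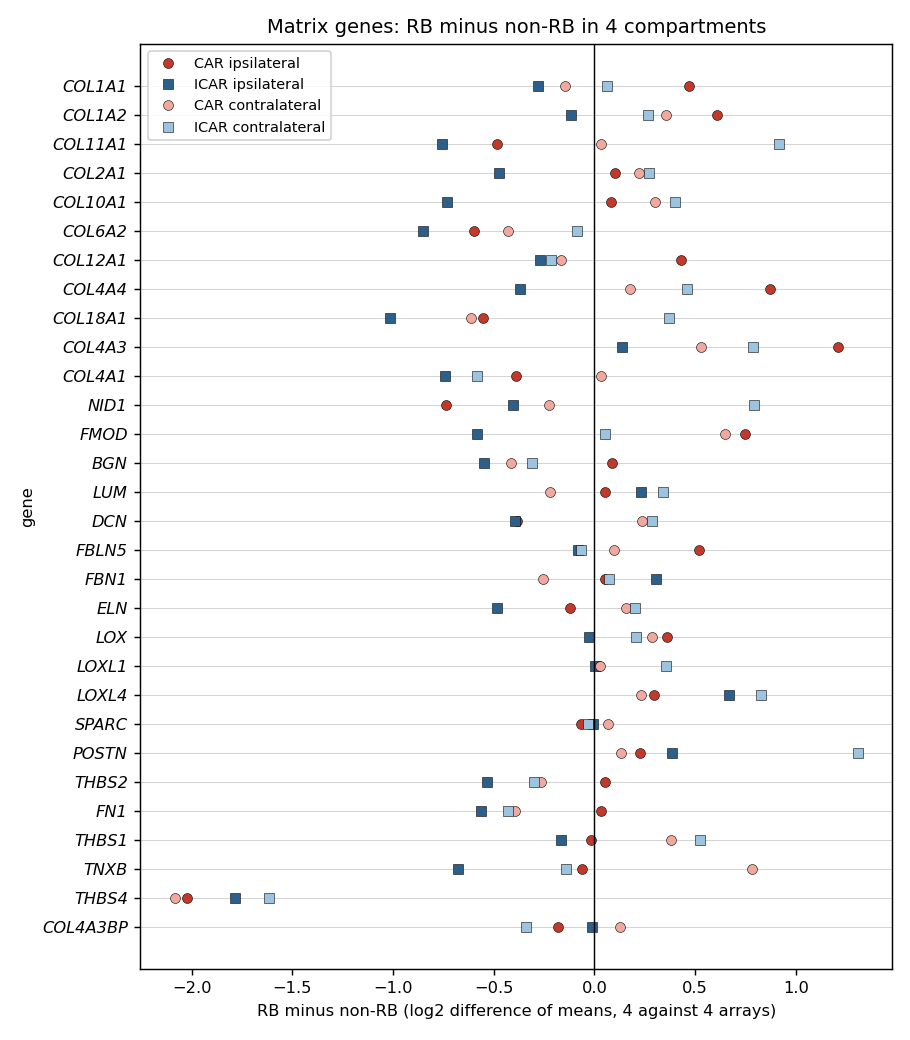
Difference between RB and non-RB cows (x axis: log2 difference of means, 4 against 4 arrays) for the 30 matrix genes, with CAR as circles, ICAR as squares, the ipsilateral horn dark and the contralateral horn pale. THBS4 lies furthest from 0 in all 4 compartments, most dark squares (ICAR ipsilateral, 24 of 30) lie to the left of 0, and 0 genes passed an adjusted p of 0.05.

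In the contralateral horn RB and non-RB cows overlapped for all 30 in CAR and in ICAR, where 1.37% and 1.48% of all probes did not overlap. In CAR 19 of the 30 had a positive difference (median 0.08), and after THBS4 the smallest p were those of COL18A1 (-0.61, SE 0.46) and BGN (-0.41, SE 0.32), both within the spread of the arrays and both positive with the slide as a block (0.23 and 0.17). In this horn a slide block rests on slides 6 and 8 alone. With a block on the scan session, RB replicates 2 and 3, alone in their session, add nothing to the difference. In ICAR 19 of the 30 had a positive difference, with a median of 0.20 against 0.021 for all probes. The median was -0.09 without the slide 1 array and -0.47 and -0.36 with the slide and the scan session as a block. All 8 epithelial markers there were lower in RB cows (median -0.32, summed level 14.3 to 67.9 in RB and 36.4 to 80.8 in non-RB cows). All 4 smooth muscle markers were higher (median 0.37, summed level 12.3 to 15.02 and 3.46 to 17.6), as were 3 of the 4 stromal markers (median 0.41). Their part in the matrix values was not tested. The second smallest p in ICAR was that of POSTN, with a difference of 1.31 (SE 0.77, exact permutation p = 0.171). POSTN was at -5.65, -3.49, -3.46 and -5.74 in RB and at -7.60, -4.47, -5.83 and -5.66 in non-RB cows. Its lowest value was the slide 1 array, not well above background there, and its highest were RB replicates 2 and 3, both on slide 2. Without the slide 1 array the difference was 0.74, and with the slide as a block -0.54. RB replicates 2 and 3 were also the 2 highest RB cows for POSTN in the other compartments.

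Across compartments, 4 matrix genes were higher in RB cows in all 4 (COL4A3, POSTN and the lysyl oxidases LOXL1 and LOXL4) and 2 were lower in all 4 (THBS4 and COL6A2). Of 12702 probes tested throughout, 15.8% were higher in all 4 and 14.1% lower in all 4, so that 4 and 2 of 30 are not above the background. Over the whole uterus the next smallest p after THBS4 were those of LOXL4 (0.51, SE 0.35) and COL4A1 (-0.42, SE 0.30), with exact permutation p of 0.286 and 0.257.

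Between the ipsilateral and contralateral horn, over both areas and groups, limma called 0 of 12919 probes. Without adjustment 0 of the 30 matrix genes had a p under 0.05, where 1.36% of all probes did, and 0 had the same sign in all 8 cows, against 0.642%. The smallest p were those of ELN (0.21 higher in the ipsilateral horn, SE 0.12, unadjusted p = 0.0923), COL18A1 (0.39, SE 0.26) and COL10A1 (0.50, SE 0.33).

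The difference between the horns was then compared between RB and non-RB cows within cows. Limma again called 0 of 12919 probes, while 784 (6.07%) and 5 of the 30 matrix genes (16.7%), COL11A1, DCN, NID1, TNXB and ELN, had an unadjusted p under 0.05. All 5 were lower, as were 4.26% of all probes. In 3 of them (10%, against 4% of all probes) the groups did not overlap. For COL11A1, a minor fibrillar collagen that sits within thicker fibrils, the ipsilateral minus contralateral difference was 1.47, 0.89, 1.097 and 0.32 in non-RB and -0.51, 0.09, -0.18 and -0.01 in RB replicates 1 to 4. For DCN it was 0.40, 0.79, 0.67 and 0.13 in non-RB and -0.14, -0.22, -0.04 and -0.21 in RB cows. For NID1 the non-RB values ran from -0.06 to 1.11 and the RB values from -0.99 to -0.14. The RB effect thus differed between horns by -1.10 (SE 0.26) for COL11A1, -0.65 (SE 0.19) for DCN and -0.86 (SE 0.30) for NID1, with an exact permutation p of 0.0286 and an adjusted p of 0.789 each in limma.

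The size of these 3 differences changed with the arrays of slide 1. On its ICAR contralateral array COL11A1 was at -8.61 and NID1 at -8.45, both not well above background, and DCN at 4.08, the lowest of all arrays for each gene. Without the 2 arrays of slide 1, where non-RB replicates 1 and 2 each kept the horn difference of 1 area, the differences were -0.41 (SE 0.36, exact permutation p = 0.371) for COL11A1, -0.31 (SE 0.27, exact permutation p = 0.343) for DCN and -0.46 (SE 0.27, exact permutation p = 0.200) for NID1. The groups then overlapped for each, and 0 of the 30 matrix genes kept an unadjusted p under 0.05, against 3.45% of all probes. With each cow left out whole, the difference ranged from -1.30 to -0.92 for COL11A1, from -0.77 to -0.55 for DCN and from -1.01 to -0.62 for NID1. Without non-RB replicate 1 and all its arrays it was -0.92, -0.68 and -0.62. Non-RB replicates 3 and 4, which had no array on slide 1, lay above every RB cow for each of the 3 genes. The genes were picked for such a lack of overlap, so that this order was given in advance and is no separate support. For NID1 the closest values were -0.06 in non-RB replicate 4 and -0.14 in RB replicate 2. The THBS4 value in this test was -0.05 (SE 0.29).

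**Figure D5:**
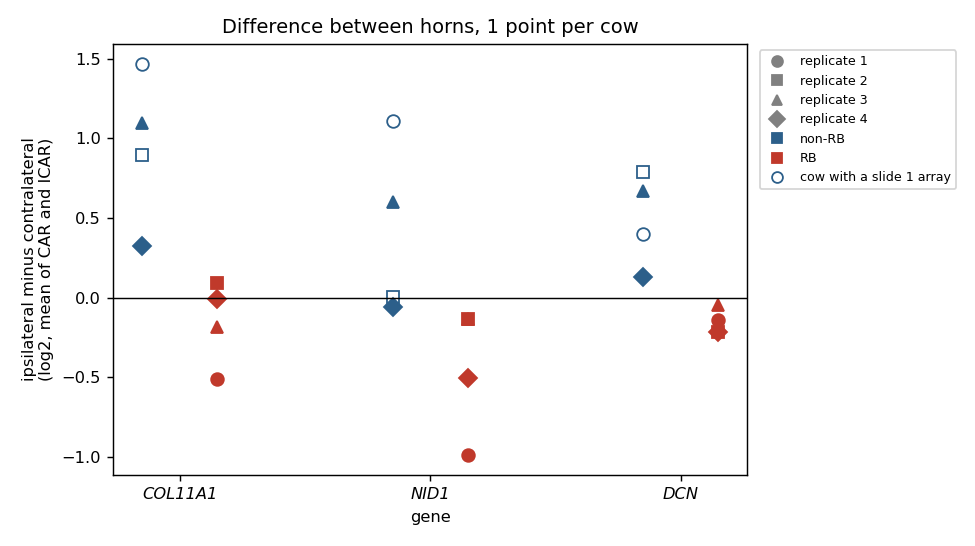
Ipsilateral minus contralateral signal (y axis: log2, mean of CAR and ICAR) of COL11A1, NID1 and DCN with 1 point per cow, the replicate by symbol, RB in red, non-RB in blue and open symbols for the 2 non-RB cows with an array on slide 1. All RB points lie below all non-RB points for each gene, and without the slide 1 arrays the groups overlap.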

How the data were processed

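Endometrium of 4 RB and 4 non-RB cows was hybridized to 32 Cy3 arrays, grouped by the deposited labels. The authors deposited an intensity per spot that is background-subtracted and not normalized between arrays (Agilent Feature Extraction 9.5, per the submitters' processing notes), and processed log2 values that differ from the ones used here by a constant of 0.00420 to 0.0140 for each array. Here the intensity was divided by the 75th percentile of its array and taken to log2, in R 4.3.3 with limma 3.58.1. Control and outlier spots were left out. Probes well above background on 2 of 8 arrays with 3 values per group (or 8 of 32 arrays) were tested, with Benjamini-Hochberg adjustment over all of them. Compartments were compared 4 against 4, the whole uterus on cow means, areas and horns on 32 arrays with the other factors, and interactions on differences within a cow. The 32 arrays include 4 per cow, so that p-values for areas and horns treat related arrays as independent. Exact permutation tests were two-sided over the 35 splits, or 256 sign patterns for 8 cows.

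Members and lists were chosen with earlier results of these data known. Genes named are THBS4 and COL1A2, the members called for CAR against ICAR (up to 6 per direction), the 3 members of smallest p elsewhere and a core of matrix genes. COL4A3, COL4A4, COL6A2, COL11A2, LOXL1, PLOD1, THBS2 and further genes listed by role were named after their values were seen. Alternatives were other filters, quantile or normexp (offset 50) processing, the deposited table, the methods' t-test, slide, session or replicate blocks, all arrays in a single fit and removal of each replicate. Leaving out slide 1 was added after seeing the data. Differences within a cow then used the pairs of arrays that remained. Other blood, muscle, vessel and macrophage marker lists were measured, with 0 markers called between RB and non-RB cows or between areas. Genome coordinates were not used, and 16 of the 31 accessions were named in the RefSeq gene table. The number of arrays limits the precision.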

Additional observations from a re-analysis of the deposited data

Results flagged for a closer look

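Of 184 groups of 4 arrays of 23 matrix genes, 9 held an array far from the other 3 (Dixon's criterion), and chance alone gives about 1 in 20. Of these, 3 were arrays of slide 1. NID1 in ICAR contralateral of non-RB replicate 1 was at -8.45 (others -6.22 to -5.90), TNXB in CAR contralateral of non-RB replicate 2 at -3.50 (others -0.93 to -0.47) and BGN on that same array at 3.53 (others 2.56 to 2.73).

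The other 6 lay on other slides. In RB cows NID1 was at -6.95 in CAR ipsilateral of replicate 1 (others -6.33 to -6.20) and COL1A1 at -2.61 there in replicate 4 (others -2.04 to -1.96). BGN in ICAR contralateral of RB replicate 3 was at 2.58 (others 1.71 to 1.80), the highest of its group, and FN1 in ICAR ipsilateral of RB replicate 2 at -5.93 (others -6.98 to -6.84). In non-RB cows FBN1 in ICAR ipsilateral of replicate 2 was at -2.95 (others -1.76 to -1.54) and FN1 in ICAR contralateral of replicate 4 at -7.07 (others -6.15 to -6.07). The FN1 values are those of the dim probe in the rule.

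The RB effect differed between the horns, without adjustment and with groups of cows that did not overlap, for COL11A1 (-1.10), NID1 (-0.86) and DCN (-0.65). The adjusted p in limma was 0.789 for each, and without the arrays of slide 1 the values were -0.41, -0.46 and -0.31.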

How the results depend on the processing

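The 4 against 4 design and the dim signal of THBS4, COL4A1, FN1 and NID1 limit these results. In CAR against ICAR the number of matrix genes called was 1, and 0 in RB cows alone, in non-RB cows alone, within the ipsilateral horn, within the contralateral horn and without the arrays of slide 1. It ranged from 0 to 3 when each replicate was left out. The BGN difference stayed between 0.48 and 0.74. The number of probes called was 174, against 120 without the filter on dim probes, 79 with normexp, 250 and 531 with the slide and scan session as a block and 0 to 915 without each replicate. The number of matrix genes higher in CAR was 21 to 28. The cause of these shifts was not tested.

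With the replicate block, that is with the cow as a block, 5 matrix genes (BGN, COL4A4, LOX, SPARC and COL1A2) and 1086 probes were called. Arrays of the same number within a group had a mean correlation of deviations of 0.424 (RB) and 0.397 (non-RB), which exceeded 0.1 in 21 and 20 of 24 pairs. For the same number in different groups, which are different cows, it was 0.112. For different numbers it was -0.142 (RB), -0.127 (non-RB) and -0.037 (between groups). Of 32 arrays 28 correlated best with their own number. RB replicates 2, 3 and 4 and non-RB replicate 4 each had all arrays on 1 slide, so that cow and slide cannot be told apart for them. The block changed no other call of matrix genes.

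Between RB and non-RB cows, 1 matrix gene (THBS4) was called over the whole uterus only when the 32 arrays were taken as independent, which the 4 arrays of a cow are not. THBS4 kept its direction under every alternative run, from -2.49 to -1.27 in CAR ipsilateral, -2.20 to -1.16 in ICAR ipsilateral, -2.56 to -1.22 in CAR contralateral, -2.32 to -0.78 in ICAR contralateral and -2.39 to -1.22 over the whole uterus. It was not run with probes well above background on every array in CAR ipsilateral, ICAR contralateral and the whole uterus, which it did not pass. Normexp moved the median of all probes to -0.20 in ICAR contralateral. Blocking on the slide or on the scan session (values in that order) turned some signs in the contralateral horn. In CAR it did so for COL18A1 (0.23 and 0.27) and BGN (0.17 and 0.21). In ICAR it did so for POSTN (-0.54 and -0.50) and COL1A2 (-1.02 and -0.79). The slide block there rests on slides 6 and 8 alone, and RB replicates 2 and 3, alone in their session, add nothing to the session values. With each replicate left out COL1A2 ranged from -0.41 to 0.24 in ICAR ipsilateral (-1.29 with the slide as a block), above 0 without RB replicate 1 (0.16) or non-RB replicate 3, and from -0.16 without RB replicate 3 to 0.58 in ICAR contralateral. ELN turned between the horns in RB cows alone (-0.030). The median of the matrix genes in ICAR ipsilateral ranged from -0.73 to -0.19 over all alternatives. The cause was not tested.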
